A study of Homo sapiens with 12 samples.

Results

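The expressed long intergenic noncoding (LINC) and antisense RNA genes of HL60 cells are described here. A gene was included when its symbol was LINC followed by a number, or ended in -AS with or without a number, and when its mean raw count over the 12 libraries was at least 20. This rule found 199 of the 59251 genes in the table, 63 of the 2184 genes named LINC and 136 of the 1654 genes named antisense. The other 3639 genes with such names stayed under the cut, and 2326 genes with such names had no count in any library. The genes were thus chosen by their names and their measured mean counts, which ran from 20.25 (AFF1-AS1) to 7549.5 (OIP5-AS1), with a median of 50.5. Just inside the cut lay SNAI3-AS1 and MZF1-AS1, both at 20.67, and just outside it lay CCNT2-AS1 at 19.92 and MAP3K14-AS1 at 19.83.

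Long noncoding RNAs are transcribed and usually spliced like mRNAs but are not translated into a conserved protein. LINC genes lie between protein-coding genes, whereas an antisense gene is named for a gene on the opposite strand, its sense partner, whose exons, introns or promoter it overlaps or faces. Some antisense RNAs act on the transcription or the mRNA of their partner, many share a promoter region with it, and for most no function is known.

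HL60 is a human acute myeloid leukemia cell line that differentiates along the granulocytic lineage when given all-trans retinoic acid (ATRA), the ligand of the retinoic acid receptors. Cells of this line were left non-treated, or were given ATRA at 1 µM, palbociclib at 1 µM (an inhibitor of the kinases CDK4 and CDK6, here CDK4/6i) or both drugs (CDK4/6i+ATRA) for 48 h, and total RNA was sequenced from 3 biological replicates of each of the 4 groups. No group carried a further genetic change, and every group is the same line, so the data describe 1 line and 1 time point. Total counts were 12230923 to 18679544 per library, lowest in the CDK4/6i+ATRA libraries. Values are CPM (counts relative to the TMM-scaled library total), on which 3 counts correspond to 0.156 to 0.275 CPM. Together the 199 genes took 0.145% to 0.195% of the counts of a library, and OIP5-AS1 alone made up 29% of their counts.

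Of 8 myeloid genes that HL60 cells express, 5 were above 1 CPM, and 3 (ELANE, AZU1 and PRTN3) were listed at 0 in every library. Why these 3 were at 0 was not tested, and a listed 0 need not mean that a gene is silent. The summed level of these 8 genes was 8060 to 8412 CPM in non-treated cells, 564 to 633 CPM with ATRA, 5070 to 5222 CPM with CDK4/6i and 207 to 235 CPM with both drugs. Of 14 genes that mark lymphoid, erythroid, epithelial or fibroblast cells, 2 were above 1 CPM and 6 were listed at 0, among them MS4A1, HBB and EPCAM. Their summed level was low but differed between groups, at 16.9 to 20.5 CPM in non-treated cells, 25 to 27.2 CPM with ATRA, 25.6 to 27 CPM with CDK4/6i and 13.1 to 17.4 CPM with both drugs, and its part in the results was not tested.

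Antisense genes overlap other genes, and this limits what their counts hold. All 390 genes of the primary chromosomes whose exons lie wholly within exons of opposite-strand genes had no count in any library, also the 60 whose opposite genes had over 5000 counts, from which it is inferred that reads in exon bases shared between strands were credited to neither gene. On that reading the 199 genes were counted on the exon bases they do not share, and 108 of them shared some exon bases with an opposite-strand gene. The 2326 LINC and antisense genes without a count may thus include expressed ones. Of the 136 antisense genes, 44 had at least 50% of their unshared exon bases inside the body of the sense partner, 21 had all of them there, and 49 had none. Where unshared bases lie in the partner's introns, unspliced reads of the partner could be counted for the antisense gene, and their part in the results was not tested.

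Promoter sequences, from RefSeq (GRCh38.p14), were matched for 155 of the 199 genes and run from 250 bases before to 50 bases after the start, the first listed start being used for the 30 genes with several. CDK4/6 inhibition acts on RB and the E2F transcription factors, so the promoters with letters of an E2F site (TTTCCCGC, TTTGGCGC or TTTCGCGC, on either strand) are given here with the site in capitals. These letters stood in 763 of 27305 promoters of all genes (2.79%) and in 5 of the 155. Of these 5 genes, EMC3-AS1, DNAJC9-AS1 and ANXA2R-AS1 were chosen after their values were seen. The match lay 209 bases before the start in LINC01388, 236 before it in LINC00997, 104 before it in DNAJC9-AS1 and 89 before it in ANXA2R-AS1, and at base 14 after it in EMC3-AS1. The LINC01388 start used lies 2036 bases inside the gene as the count table lists it.
LINC01388, chr9:113746-114045, minus strand: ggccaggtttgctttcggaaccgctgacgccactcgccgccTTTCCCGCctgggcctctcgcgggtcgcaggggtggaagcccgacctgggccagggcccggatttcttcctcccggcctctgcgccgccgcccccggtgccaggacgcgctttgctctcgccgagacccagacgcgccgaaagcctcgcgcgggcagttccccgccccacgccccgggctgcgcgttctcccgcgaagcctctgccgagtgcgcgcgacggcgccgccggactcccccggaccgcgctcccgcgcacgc
LINC00997, chr7:32758036-32758335, plus strand: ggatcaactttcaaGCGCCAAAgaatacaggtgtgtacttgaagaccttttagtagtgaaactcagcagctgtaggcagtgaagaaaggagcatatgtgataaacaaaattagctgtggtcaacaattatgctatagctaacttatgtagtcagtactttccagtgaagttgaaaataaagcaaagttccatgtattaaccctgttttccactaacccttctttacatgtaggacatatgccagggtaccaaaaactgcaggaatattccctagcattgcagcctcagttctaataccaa
EMC3-AS1, chr3:9986643-9986942, plus strand: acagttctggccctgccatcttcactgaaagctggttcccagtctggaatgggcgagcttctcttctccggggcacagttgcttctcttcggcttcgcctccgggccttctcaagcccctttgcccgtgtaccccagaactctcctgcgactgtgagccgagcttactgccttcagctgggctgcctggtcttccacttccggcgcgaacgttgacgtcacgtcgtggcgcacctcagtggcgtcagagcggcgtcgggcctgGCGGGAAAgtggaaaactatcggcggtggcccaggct
DNAJC9-AS1, chr10:73247117-73247416, plus strand: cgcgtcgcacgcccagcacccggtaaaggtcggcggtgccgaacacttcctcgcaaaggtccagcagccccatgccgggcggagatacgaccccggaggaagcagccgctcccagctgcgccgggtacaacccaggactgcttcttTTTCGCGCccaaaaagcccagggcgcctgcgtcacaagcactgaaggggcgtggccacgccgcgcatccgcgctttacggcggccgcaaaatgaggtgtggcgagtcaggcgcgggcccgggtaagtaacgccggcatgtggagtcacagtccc
ANXA2R-AS1, chr5:43041884-43042183, plus strand: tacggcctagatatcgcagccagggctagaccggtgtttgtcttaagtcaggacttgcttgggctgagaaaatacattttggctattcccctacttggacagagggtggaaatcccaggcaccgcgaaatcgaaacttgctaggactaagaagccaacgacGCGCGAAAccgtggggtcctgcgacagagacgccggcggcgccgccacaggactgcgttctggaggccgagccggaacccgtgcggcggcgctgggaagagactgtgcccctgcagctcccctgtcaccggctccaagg

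For comparison, the promoters of TMPO-AS1, the gene that fell furthest with CDK4/6i, and of ADORA2A-AS1, which rose strongly with ATRA, are shown. TMPO-AS1 had no E2F letters in this window, which says only that these letters are not in it. In ADORA2A-AS1 the capitals mark letters of a PU.1 site (GAGGAAGT on either strand, in 2.54% of all promoters and in 8 of the 155) 188 bases before the start, and 2 E-boxes (CACGTG, in 7.43% of all promoters and in 14 of the 155) 114 and 50 bases before it.
TMPO-AS1, chr12:98516177-98516476, minus strand: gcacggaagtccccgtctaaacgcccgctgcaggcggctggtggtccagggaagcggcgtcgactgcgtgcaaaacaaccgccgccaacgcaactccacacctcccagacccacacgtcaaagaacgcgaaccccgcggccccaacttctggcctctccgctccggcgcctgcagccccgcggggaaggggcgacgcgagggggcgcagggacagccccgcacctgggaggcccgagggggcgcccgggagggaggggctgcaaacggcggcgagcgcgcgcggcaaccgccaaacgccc
ADORA2A-AS1, chr22:24495025-24495324, minus strand: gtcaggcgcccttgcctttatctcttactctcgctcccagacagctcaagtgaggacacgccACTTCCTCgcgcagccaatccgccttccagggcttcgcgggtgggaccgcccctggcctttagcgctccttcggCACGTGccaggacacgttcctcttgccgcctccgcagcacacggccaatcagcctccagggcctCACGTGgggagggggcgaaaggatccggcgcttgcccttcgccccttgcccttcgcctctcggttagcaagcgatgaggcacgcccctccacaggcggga

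In non-treated cells the most abundant of the 199 genes per length was OIP5-AS1, a conserved cytoplasmic RNA also known as cyrano, at 46.8 RPKM (CPM per kilobase of gene length). The next were GATA2-AS1 (29.5 RPKM), FGD5-AS1 (16.3), NUTM2A-AS1 (15.1), MRPL20-AS1 (12.7) and EPB41L4A-AS1 (10.9). These are levels, and they are read per length only between genes. Per unshared exon base, the median of the 199 genes was 0.992 RPKM. OIP5-AS1 stood at 501, 489 and 509 CPM in the non-treated libraries, 414, 416 and 418 with ATRA, 633, 619 and 624 with CDK4/6i and 315, 316 and 332 with both drugs, so no group overlapped another. It fell with ATRA (log2 fold change -0.26 ± 0.04 (approximate SE)), rose with CDK4/6i (0.32 ± 0.04) and fell furthest with both drugs (-0.64 ± 0.04, adjusted p = 5.02e-21).

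GATA2-AS1 overlaps the body of GATA2, the gene of a transcription factor of blood stem and progenitor cells, without shared exon bases. Its libraries held 69.2, 68.5 and 70.8 CPM without treatment, 29.7, 30.1 and 30.2 with ATRA, 87.7, 77.2 and 84.6 with CDK4/6i and 20.6, 20.2 and 21.4 with both, and it fell by 1.74 on the log2 scale with CDK4/6i+ATRA (SE 0.07, adjusted p = 4.96e-29). FGD5-AS1 went the other way: 73.7, 70.9 and 69.2 CPM in non-treated cells, 127, 128 and 125 with ATRA, 54.4, 54.7 and 59.7 with CDK4/6i and 111, 109 and 111 with both drugs. It thus rose with ATRA (0.83 ± 0.04), fell with CDK4/6i (-0.34 ± 0.05) and rose with the combination (0.63 ± 0.05). EPB41L4A-AS1 fell with ATRA (-1.06 ± 0.12) and rose with CDK4/6i (1.06 ± 0.09). With both drugs it stood at 13.9, 11.2 and 14.4 CPM against 12.7, 12.7 and 13.8 in non-treated cells, a log2 difference of 0.01 ± 0.11 that did not pass the test (adjusted p = 0.921) and became -0.25 (adjusted p = 0.0433) when scaled by library size alone. MRPL20-AS1 likewise did not pass with both drugs (-0.06, adjusted p = 0.519) but did under that scaling (-0.32, adjusted p = 0.00107), while NUTM2A-AS1 rose (0.44, adjusted p = 0.000127) and lost the call under it (0.18, adjusted p = 0.109).

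Each drug changed many of these RNAs, and more of them rose than fell, an order that the choice of genes tends to favour. A change was called where the adjusted p was under 0.05 in edgeR's quasi-likelihood test, adjusted over all 13318 genes tested, which include all 199. With ATRA against non-treated cells 72 of the 199 rose and 41 fell, with CDK4/6i 70 rose and 17 fell, and with CDK4/6i+ATRA 98 rose and 51 fell. By library size alone, in place of TMM, the last comparison gave 80 higher and 63 lower. Across all genes tested, 67.6% were called with ATRA (32.1% higher, 35.5% lower), 56.2% with CDK4/6i (28.3% higher, 27.9% lower) and 81.7% with CDK4/6i+ATRA (41.0% higher, 40.7% lower), so the share called among the 199 (56.8%, 43.7% and 74.9%) lay below the background each time. In the same order, the median log2 fold change of the 199 was 0.23, 0.28 and 0.44, whereas over all genes tested it was -0.03, 0.02 and 0.02. By library size alone the medians with CDK4/6i+ATRA were 0.18 for the 199 and -0.25 for all genes. Without non-treated replicate 1 the ATRA median of the 199 was 0.153. The 102 genes with a mean count of at least 50 had a median of 0.272 with CDK4/6i+ATRA, and the 97 with a lower mean 0.608. With the cut at a mean count of 10 the median was 0.51. Most libraries in the mean count are drug-treated, so genes raised by a drug pass the cut more easily than genes lowered by it. All genes tested were kept by another rule, and how much of the excess of rises the choice makes was not tested. The comparisons of each drug and of both with non-treated cells share the non-treated libraries. Since RNA was taken from whole cultures, fewer cells that express a gene and less of its RNA per cell cannot be told apart.

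**Figure D1:**
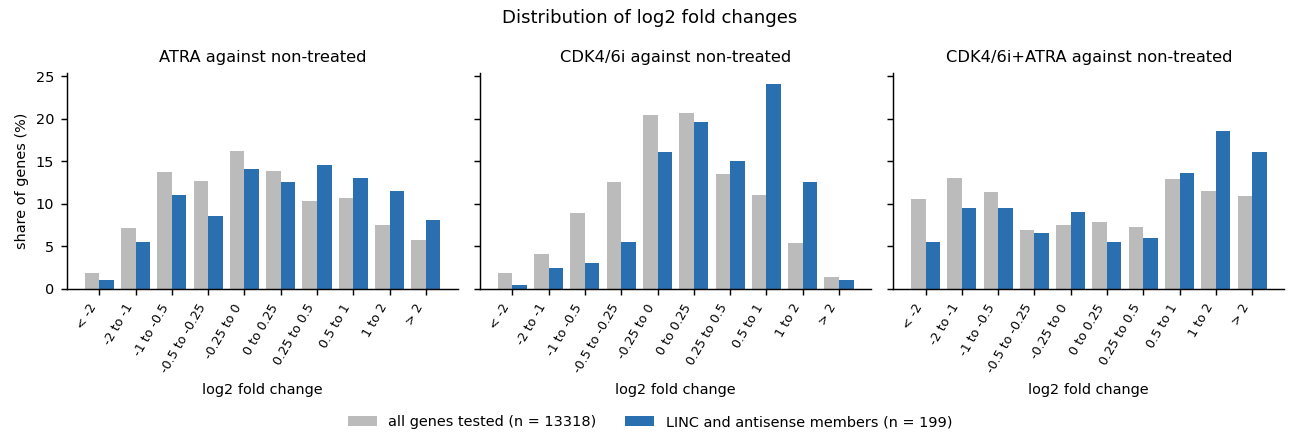
Share of genes (y axis, percent) in bins of log2 fold change from non-treated cells (x axis) for each drug alone and for both. Grey bars are all 13318 genes tested and blue bars the 199 LINC and antisense genes. With CDK4/6i+ATRA, 16.1% of the 199 lie above 2 on the log2 scale against 11% of all genes, and 5.53% lie below -2 against 10.6%.

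Changes of at least 2-fold with CDK4/6i+ATRA were called for 69 genes that rose and 30 that fell, beside 45.5% of all genes tested in both directions together. The 3 CDK4/6i+ATRA libraries did not overlap the 3 non-treated libraries for 147 of the 199 genes, beside 81.8% of all genes tested. By class, 30 LINC genes rose and 23 fell with CDK4/6i+ATRA, and 68 antisense genes rose and 28 fell. With CDK4/6i alone 24 LINC genes rose and 6 fell, and 46 antisense genes rose and 11 fell. ATRA raised 23 LINC genes and lowered 17, and it raised 49 antisense genes and lowered 24. Whether the classes differ was not tested.

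The count limits these calls. Of the 97 genes with a mean count under 50, 43.3% were called with ATRA, 35.1% with CDK4/6i and 71.1% with both drugs, compared with 69.6%, 52% and 78.4% of the 102 genes with a higher mean. In 79 genes at least 1 group had a mean under 20 counts. Of these, 5 genes reached 20 counts in only 1 group and 27 in only 2. Such a gene entered through the groups where it is high, so its change is partly fixed by the choice of genes. Among those described below, this holds for LINC00398, PTPRN2-AS1, ADORA2A-AS1, SLC9A3-AS1 and ITGB2-AS1, which entered through the groups with ATRA.

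The 5 LINC genes with the largest rises in CDK4/6i+ATRA-treated cells all had low levels without treatment, which the choice by mean count largely fixes. Positions of genes are those of the count table, in hg38. LINC00398 (chr13:30803206-30810645) had 0.12, 0.125 and 0 CPM in the non-treated libraries, 4 counts in all, against 3.14, 3.03 and 2.6 CPM with ATRA, 0.0519, 0.244 and 0.527 with CDK4/6i and 3.39, 4.01 and 3.31 with both. Every library with ATRA lay far above every library without it. The ratio of CDK4/6i+ATRA to non-treated cells was 44.9, with a 95% counting interval of 17.1 to 167 that covers counting error only (adjusted p = 1.09e-13). LINC00398 was not called with CDK4/6i (adjusted p = 0.0787, or 0.0165 without CDK4/6i replicate 1) nor between CDK4/6i+ATRA and ATRA (adjusted p = 0.347).

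LINC02542 (chr6:81843781-82101765) rose with each drug and further with both, from 0.18, 0.251 and 0.282 CPM in non-treated libraries to 1.17, 1.46 and 0.994 with ATRA, 0.933, 1.28 and 1.35 with CDK4/6i and 3.57, 6.24 and 5.7 with both drugs. The single-drug libraries overlapped each other and neither overlapped the other groups. Its log2 fold change was 4.40 ± 0.37 with both drugs, 2.30 ± 0.45 with ATRA and 2.27 ± 0.45 with CDK4/6i. LINC03014 (chr7:149718-155465) rose with ATRA and not detectably with CDK4/6i: 0.361, 0.752 and 0.451 CPM without treatment, 2.96, 2.33 and 2.82 with ATRA, 0.467, 0.428 and 0.878 with CDK4/6i and 8.07, 7.58 and 6.86 with both (log2 fold change 3.84 ± 0.28). It is listed on 4 contigs, alternate ones included.

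LINC00963 (chr9:129488660-129513686) and LINC00649 (chr21:33931122-33971186) had higher counts. LINC00963 rose from 1.26, 0.941 and 1.01 CPM to 14.9, 12.4 and 12.6 with CDK4/6i+ATRA, while ATRA gave 3.14, 2.86 and 3.09 and CDK4/6i 1.97, 2.02 and 1.4 CPM. Only the combination lifted it above 10 CPM, a log2 fold change of 3.62 ± 0.20 (adjusted p = 4.56e-22). LINC00649 stood at 0.601, 0.941 and 1.18 CPM in non-treated cells, 5.24, 6.12 and 6.08 with ATRA, 1.3, 1.59 and 2.05 with CDK4/6i and 8.34, 8.91 and 9.17 with both drugs, a rise of 3.26 ± 0.23 on the log2 scale.

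The LINC genes that fell furthest with CDK4/6i+ATRA differed in their response to the single drugs. LINC02870 (chr10:132445189-132448306) followed ATRA, with 5.95, 5.08 and 4.45 CPM in non-treated cells, 0.924, 0.991 and 0.994 with ATRA, 5.76, 4.09 and 4.86 with CDK4/6i and 0.183, 0.267 and 0.413 with both (log2 fold change -4.10 ± 0.34). LINC00997 (chr7:32758286-32762924), a gene of a single exon block, also fell with ATRA and further with both drugs, from 11.8, 12.3 and 12.9 CPM to 7.83, 6.3 and 7.46 and 3.48, 2.67 and 2.56 CPM, and had 11.8, 13.3 and 11.5 CPM with CDK4/6i. Its change with both was -2.09 ± 0.16 (adjusted p = 4.59e-17). LINC00426 (chr13:30340266-30373914) was called in neither single-drug comparison and fell only with the combination: 4.03, 4.45 and 3.6 CPM without treatment, 3.88, 2.92 and 3.81 with ATRA, 6.12, 4.4 and 3.16 with CDK4/6i and 0.458, 0.624 and 0.165 with both. Its log2 fold change with both drugs was -3.27 ± 0.36.

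LINC01388 (chr9:100994-115831), the first of the E2F-bearing promoters printed above, was among the 4 genes that fell in all 3 comparisons. Its levels were 4.15, 4.01 and 5.18 CPM in non-treated libraries, 2.4, 3.21 and 3.04 with ATRA, 1.56, 1.47 and 2.52 with CDK4/6i and 1.37, 1.07 and 0.661 with both, and it was the LINC gene that fell furthest with CDK4/6i (-1.27 ± 0.23, adjusted p = 6.28e-06). Its call with ATRA was lost without non-treated replicate 3 (-0.50, adjusted p = 0.0763) and without ATRA replicate 1 (-0.51, adjusted p = 0.0577). LINC02693 (chr17:21528310-21551678) fell from 2.4, 4.14 and 3.66 to 1.19, 0.357 and 1.07 CPM with both drugs (-1.95 ± 0.32) and to 1.66, 1.34 and 1.44 CPM with ATRA. Its CDK4/6i libraries (3.89, 3.24 and 3.63 CPM) lay in the range of the non-treated ones.

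Of the 5 genes whose promoters hold E2F letters, EMC3-AS1 fell with CDK4/6i, from 10.6, 10.4 and 12.2 to 3.89, 5.5 and 4.62 CPM (-1.25 ± 0.14, adjusted p = 4.52e-11), and with both drugs, to 4.4, 3.83 and 4.88 CPM. ATRA alone left it at 10.5, 9.68 and 8.78 CPM, and it was not called (adjusted p = 0.152). EMC3, its partner and a subunit of the ER membrane complex, rose with both drugs (log2 fold change 0.55). DNAJC9-AS1 was called lower with CDK4/6i+ATRA near the threshold (-0.64 ± 0.31, adjusted p = 0.0495), and its head-to-head partner DNAJC9, a histone chaperone, fell by 2.99. ANXA2R-AS1 was not called in any of the 3 comparisons. The DNAJC9-AS1 call was lost in 13 of 20 alternative fits. Counted over the 155 genes with a promoter, E2F letters stood in 4 of the 40 that fell with CDK4/6i+ATRA, DNAJC9-AS1 included, and in 0 of the 73 that rose, beside 6.43% of the promoters of all genes that fell and 3.44% of those of all genes that rose. With CDK4/6i alone they stood in 2 of the 13 that fell and in 0 of the 56 that rose, beside 7.95% and 2.83% of all genes. PU.1 letters stood in as many of the 40, 4, and in 3 of the 73, beside 2% and 3.89% of all genes that fell and rose. Other elements were searched too. Letters of the cell cycle element CHR (TTTGAA) stood in 3 of the 40 and 4 of the 73, beside 10.6% and 9.99%. Of the 155 promoters, 0 held letters of the retinoid element DR5 and 2 of DR2, beside 0.754% and 0.692% of all promoters. CCAAT boxes, E-boxes and C/EBP sites were also searched.

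The antisense gene with the largest rise was PTPRN2-AS1 (chr7:157854585-157866092), which lies inside the body of PTPRN2 without shared exon bases, a gene for a phosphatase-like protein of secretory vesicles. It had 0 counts in all 3 non-treated and all 3 CDK4/6i libraries, 21.5, 19.3 and 18.9 CPM with ATRA (1023 counts in all) and 75.9, 84.4 and 83.7 CPM with CDK4/6i+ATRA (2788 counts). Against a floor of 3 counts per library it was at least 111-fold higher with ATRA and at least 454-fold higher with CDK4/6i+ATRA than in non-treated cells (adjusted p = 8.56e-31 and 9.15e-40). From ATRA to CDK4/6i+ATRA it rose by 2.03 ± 0.08 on the log2 scale. PTPRN2 itself stayed at or under 0.367 CPM in every library and was not tested.

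ADORA2A-AS1 (chr22:24429206-24495074) had 1 count over the 3 non-treated libraries, 2.47, 2.39 and 2.21 CPM with ATRA, 0.0519, 0.0611 and 0.176 with CDK4/6i and 4.58, 5.7 and 5.21 with both. The ratio of CDK4/6i+ATRA to non-treated cells was 260, with a counting interval of 46.1 to 10339 (adjusted p = 4.73e-18), and its fitted value, 7.54 on the log2 scale, became 9.34 without non-treated replicate 1, which held that count. ADORA2A encodes an adenosine receptor that dampens immune cell activity. SLC9A3-AS1 (chr5:473236-480892) and ITGB2-AS1 (chr21:44921035-44929680) had 5 counts each in non-treated cells. SLC9A3-AS1 reached 7.83, 6.35 and 5.97 CPM with ATRA and 18.3, 20 and 17 with both drugs, a ratio of 185 (counting interval 79 to 573), and ITGB2-AS1 reached 5.92, 3.61 and 2.98 and 11.5, 9.89 and 9.17 CPM, a ratio of 102 (43.4 to 317). Without non-treated replicate 2 the fitted log2 values of these genes moved from 7.42 to 8.12 and from 6.57 to 7.27.

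RUNX3-AS1 (chr1:24932246-24964708) rose from 0.24, 0.752 and 0.282 CPM in non-treated cells to 6.41, 6.3 and 7.4 with ATRA and 9.35, 9.54 and 9.01 with both, and had 0.311, 0.244 and 0.644 CPM with CDK4/6i. Its log2 fold change with both was 4.45 ± 0.27, or 5.11 without non-treated replicate 2. RUNX3, a transcription factor of lymphoid and myeloid cells, rose by only 0.76 in the same comparison, and all unshared exon bases of RUNX3-AS1 lie within its body. The same holds for SLC9A3-AS1, and for 61.3% of the unshared bases of ITGB2-AS1 and 70.2% of those of ADORA2A-AS1.

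**Figure D2:**
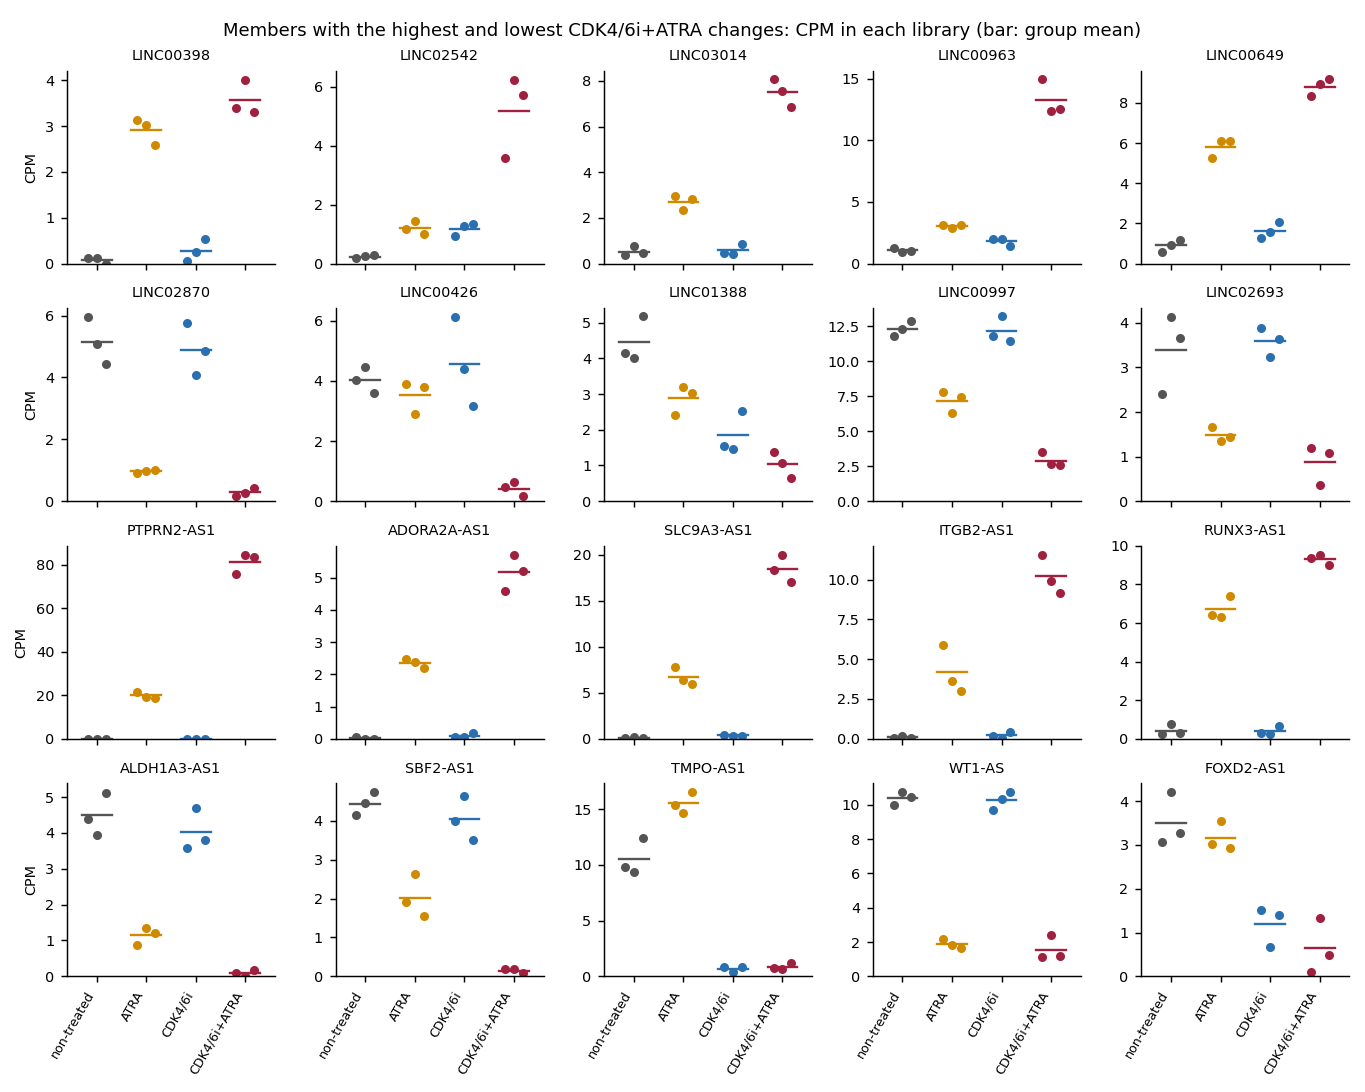
CPM after TMM scaling (y axis, starting at 0, a scale per panel) of the 10 LINC and 10 antisense genes with the highest and lowest called changes with CDK4/6i+ATRA, in the 4 groups (x axis). Each point is 1 library and each bar the mean of 3. PTPRN2-AS1 is at 0 in 6 libraries and between 75.9 and 84.4 CPM with CDK4/6i+ATRA, and LINC00426 is low with the combination only.

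Among antisense genes that fell, ALDH1A3-AS1 (chr15:100892343-100919283) had 4.39, 3.95 and 5.12 CPM in non-treated cells, 0.863, 1.34 and 1.22 with ATRA, 3.58, 4.71 and 3.8 with CDK4/6i and 0.0917, 0 and 0.165 with both, the last from 3 counts in all. Non-treated cells were thus higher by a ratio of 51.4 (counting interval 17.4 to 251, adjusted p = 1.78e-15). The fitted log2 value was -5.56, or -6.41 without CDK4/6i+ATRA replicate 3. Its partner ALDH1A3, an enzyme that makes retinoic acid from retinal, was at or under 0.156 CPM in all libraries and was not tested. The 5′ end of ALDH1A3-AS1 lies 74 bases from that of LRRK1.

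SBF2-AS1 (chr11:9758293-9811319) fell in the same way, from 4.15, 4.45 and 4.73 CPM in non-treated cells to 1.91, 2.62 and 1.55 with ATRA and 0.183, 0.178 and 0.0826 with both, and had 3.99, 4.64 and 3.51 CPM with CDK4/6i. The CDK4/6i+ATRA libraries held 5 counts in all, and the ratio was 30.5 (counting interval 12.9 to 94.7). WT1-AS (chr11:32435518-32458769), whose start lies 21 bases from that of the transcription factor gene WT1, followed ATRA only. It had 9.98, 10.7 and 10.5 CPM in non-treated and 9.7, 10.3 and 10.8 CPM in CDK4/6i libraries, against 2.16, 1.81 and 1.66 with ATRA and 1.1, 2.41 and 1.16 with both (log2 fold change -2.74 ± 0.20).

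TMPO-AS1 (chr12:98512973-98516226) followed CDK4/6i. It starts 653 bases from TMPO, the gene for lamina-associated polypeptide 2 of the nuclear envelope. Its level was 9.8, 9.41 and 12.4 CPM in non-treated libraries, 15.4, 14.7 and 16.5 with ATRA, 0.83, 0.367 and 0.819 with CDK4/6i and 0.733, 0.624 and 1.16 with both. It rose with ATRA (0.56 ± 0.12) and fell with CDK4/6i (-3.94 ± 0.21, adjusted p = 5.65e-22) and with both (-3.63 ± 0.23), and the latter groups overlapped. FOXD2-AS1 (chr1:47432133-47434641) was not called with ATRA and fell with CDK4/6i (-1.53 ± 0.29), with 3.07, 4.2 and 3.27 CPM in non-treated cells, 3.02, 3.56 and 2.93 with ATRA, 1.5, 0.672 and 1.4 with CDK4/6i and 0.0917, 1.34 and 0.496 with both. CDK4/6i+ATRA replicate 2 was its highest library in that group, and the log2 fold change of -2.43 ± 0.37 was -3.49 without it.

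Further genes stood out with ATRA alone. LINC00926 (chr15:57300365-57307769) fell from 15.9, 15.2 and 21.1 to 4.38, 4.55 and 4.97 CPM with ATRA (-1.91 ± 0.12) and rose to 31, 35.9 and 36.9 CPM with CDK4/6i (0.99 ± 0.09). LINC01215 (chr3:108125064-108138610) went the same ways, from 24.4, 26.7 and 27.4 CPM to 8.01, 8.69 and 8.73 with ATRA and 39, 38.1 and 37.9 with CDK4/6i. GAS6-AS1 (chr13:113815610-113842841), antisense to the gene of a ligand of the TAM receptor kinases, was another, at 3.79, 3.2 and 3.49 CPM in non-treated cells, 1.48, 1.28 and 0.994 with ATRA and 4.72, 5.74 and 6.9 with CDK4/6i. In each of these genes the 3 groups did not overlap, and with both drugs the level was below that of non-treated cells: 5.77, 5.97 and 5.87 CPM for LINC00926, 18.4, 15.7 and 14.3 for LINC01215 and 2.02, 1.69 and 2.15 for GAS6-AS1.

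Over the 199 genes, 15 (7.54%, beside 7.61% of all genes tested) were called lower with ATRA and higher with CDK4/6i, of which 8 were lower, 1 was higher and 6 were not called with both drugs. The reverse, higher with ATRA and lower with CDK4/6i, was seen in 7 genes (3.52%, beside 5.66%). In the same direction with both single drugs and with the combination were 29 genes that rose (14.6%, beside 13.5%) and 4 that fell (2.01%, beside 15.1%). For 32 genes the rise was called with ATRA and with the combination but not with CDK4/6i (16.1%, beside 10.8%), and for 12 with CDK4/6i and the combination but not with ATRA (6.03%, beside 4.26%). The combination alone was called for 20 genes that rose (10.1%, beside 6.31%) and 11 that fell (5.53%, beside 3.65%), and 23 genes were called in none of the 3 comparisons (11.6%, beside 9.36%). These shares are given as a description.

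With CDK4/6i alone the LINC genes that rose furthest were LINC02542, described above, LINC00537 (chr9:63812941-63819029) and LINC01088 (chr4:78971748-79308799). LINC00537 rose from 0.841, 0.878 and 1.01 to 2.54, 2.44 and 1.52 CPM (1.25 ± 0.30). LINC01088 rose from 1.44, 0.752 and 1.07 to 2.75, 2.14 and 2.75 CPM (1.22 ± 0.31) and stood at 0.458, 0.446 and 0.909 CPM with both drugs, where it was not called (adjusted p = 0.0685). It was called lower there without CDK4/6i+ATRA replicate 3 (-1.26, adjusted p = 0.0243), without non-treated replicate 2 (-1.02, adjusted p = 0.0326) and by library size alone (-1.09, adjusted p = 0.0156). Among antisense genes DLGAP1-AS1 (chr18:3594114-3597379), inside the body of a synaptic scaffold gene, rose from 0.301, 0.188 and 0.225 to 0.985, 1.16 and 1.05 CPM with CDK4/6i and to 5.13, 4.37 and 4.21 with both. FAM131B-AS2 (chr7:143379155-143381025), the only antisense-named gene that the table puts on the same strand as its partner, rose from 0.481, 0.502 and 0.619 to 2.02, 1.71 and 2.63 CPM with CDK4/6i and to 11, 9.27 and 12 CPM with both (4.31 ± 0.26). Its start lies 320 bases from that of ZYX, a gene for a focal adhesion protein.

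PSMG3-AS1 (chr7:1570073-1589626) starts 41 bases from PSMG3, a chaperone of proteasome assembly. It had 1.38, 0.941 and 1.58 CPM in non-treated cells, 3.45, 3.56 and 3.2 with ATRA, 3.94, 5.62 and 4.56 with CDK4/6i and 12.2, 13 and 15 with both, with no overlap between groups. Its rise was 1.83 ± 0.22 with CDK4/6i and 3.35 ± 0.19 with both. Falls with CDK4/6i were fewer: TRAF3IP2-AS1 (chr6:111483472-111602295), antisense to the gene of an adaptor of the IL-17 receptor, went from 3.91, 4.14 and 4.39 to 1.61, 2.26 and 1.35 CPM, and LINC00294 (chr11:33076150-33079454) from 10.3, 10.8 and 10.9 to 7.26, 6.78 and 6.61 CPM. LINC00342 (chr2:95807052-95826981) was called lower with CDK4/6i (-0.58 ± 0.24, adjusted p = 0.0343), and the call was lost without non-treated replicate 3 (-0.35, adjusted p = 0.284), without CDK4/6i replicate 1 (-0.54, adjusted p = 0.0902), without CDK4/6i replicate 2 (-0.54, adjusted p = 0.0887) and in DESeq2 (-0.57, adjusted p = 0.066).

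Set against the single drugs, CDK4/6i+ATRA was called higher than ATRA in 79 genes and lower in 36, and higher than CDK4/6i in 85 and lower in 71. Of all genes tested, 69.8% and 78.6% were called in these comparisons. These splits depend on the scaling: by library size alone they became 51 higher and 58 lower against ATRA and 64 higher and 81 lower against CDK4/6i, since the TMM factors were 0.84 to 0.893 in CDK4/6i+ATRA libraries and 1.025 to 1.07 in the others. Library size alone shifted the median of all genes tested to -0.26 and -0.28 in these comparisons and to -0.25 when the combination was set against non-treated cells.

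Whether the drugs added up was tested by an interaction term, the log2 change with both drugs minus the sum of the single-drug changes. It was called for 58 of the 199 genes, 22 positive and 36 negative, beside 51.4% of all genes tested (24.5% positive, 27.0% negative). By library size alone it was called for 10 positive and 63 negative. Among the called interactions the 4 highest were all of antisense genes that rose with both drugs. ZNF337-AS1 (chr20:25624045-25678074), antisense to a zinc finger gene, had 1.26, 2.13 and 1.41 CPM in non-treated cells, 2.59, 1.87 and 2.54 with ATRA, 0.726, 0.672 and 0.761 with CDK4/6i and 9.35, 9.63 and 9.59 with both, an interaction of 3.16 ± 0.36 (adjusted p = 2.4e-10). It fell with CDK4/6i alone and rose with the combination.

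ZNF674-AS1 (chrX:46545490-46548475) overlapped among the 3 other groups, with 1.62, 1.38 and 1.18 CPM in non-treated cells, 1.73, 1.28 and 1.55 with ATRA and 1.3, 1.47 and 1.35 with CDK4/6i, and reached 10.8, 7.93 and 9.67 CPM with both (interaction 2.66 ± 0.36). ATXN1-AS1 (chr6:16761138-16766883) was at 2.04, 2.38 and 2.08, then 2.28, 1.22 and 0.829 with ATRA, 2.13, 2.2 and 1.76 with CDK4/6i and 5.5, 6.33 and 6.53 with both (interaction 2.19 ± 0.36). RAB11B-AS1 (chr19:8374376-8390691), which starts 331 bases from the gene of a GTPase of recycling endosomes, rose with ATRA from 2.28, 2.07 and 1.63 to 4.31, 4.49 and 4.92 CPM and with both drugs to 26.9, 24.8 and 22.8 CPM, with 2.18, 3.12 and 2.81 CPM for CDK4/6i (interaction 2.00 ± 0.25).

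The 4 lowest called interactions belonged to SBF2-AS1 (-3.58 ± 0.54), ALDH1A3-AS1 (-3.43 ± 0.67, or -4.28 without CDK4/6i+ATRA replicate 3), LINC00426 (-3.28 ± 0.43) and FRY-AS1 (-1.97 ± 0.44). The first 2 rest on 5 and 3 counts in the CDK4/6i+ATRA libraries, so the size of their interaction depends on the prior count of the fit. FRY-AS1 (chr13:32024046-32031639), head to head with the gene FRY, rose with CDK4/6i from 2.04, 1.25 and 1.97 to 3.11, 3.85 and 4.39 CPM, stayed at 1.6, 1.46 and 1.49 CPM with ATRA, where it was not called, and fell to 1.01, 1.16 and 0.331 CPM with both (-1.10 ± 0.36), a call that was lost without CDK4/6i+ATRA replicate 3 (-0.70, adjusted p = 0.0821).

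**Figure D3:**
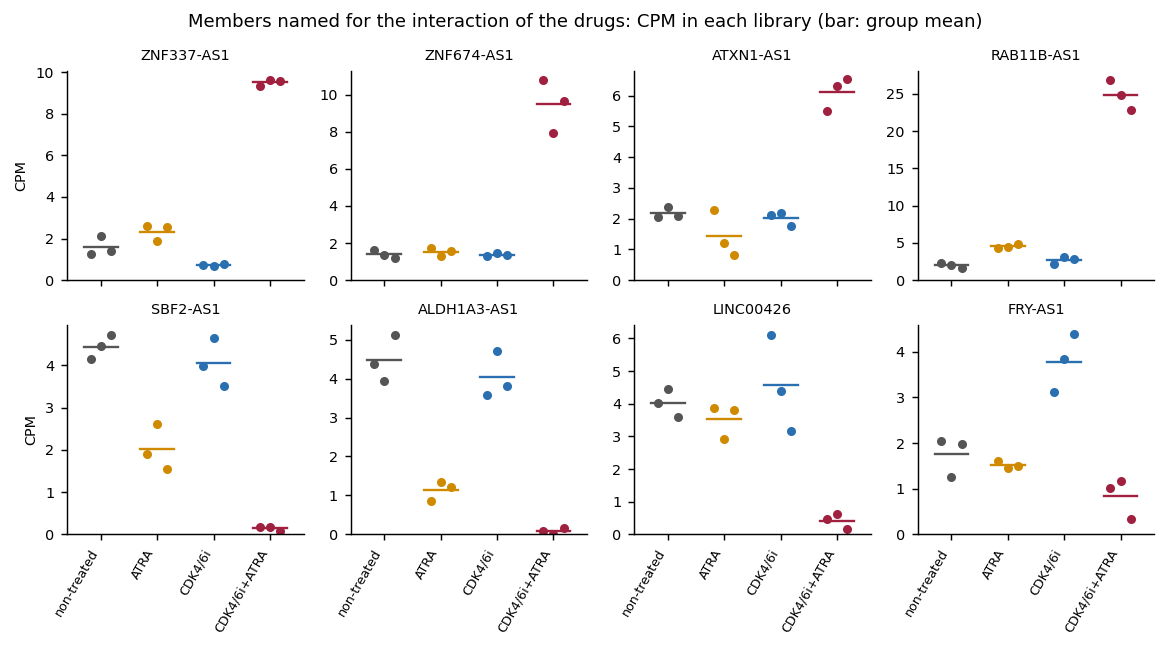
CPM after TMM scaling (y axis, starting at 0) in the 4 groups (x axis) for the 8 genes with the highest and lowest called interactions. Each point is 1 library and each bar the mean of 3. The upper 4 genes are high in CDK4/6i+ATRA libraries and the lower 4 are low there, with ZNF337-AS1 between 9.35 and 9.63 CPM and SBF2-AS1 between 0.0826 and 0.183 CPM.

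Each of the 136 antisense genes was set beside its sense partner, and 124 partners passed the filter and were tested. In the annotation the exons of 81 antisense genes overlapped those of the partner, 21 overlapped its body without shared exon bases, 24 stood head to head within 1000 bases, 9 lay otherwise and 1 lay on the same strand. Between non-treated and CDK4/6i+ATRA cells both genes were called in the same direction in 51 of the 124 pairs (35 higher, 16 lower) and in opposite directions in 24. In 20 of these 24 the antisense gene rose while the partner fell, and in 4 the reverse held. Of all genes tested 41.0% were called higher and 40.7% lower here, and more antisense genes rose than fell (68 and 28). Unrelated genes were not paired for comparison, so no link within pairs is read from these counts. Only the antisense gene was called in 13 pairs, only the partner in 32 and neither in 4. The median log2 fold change was 0.46 for the antisense genes and -0.07 for the partners, and the antisense gene had the higher value in 87 of the 124 pairs. Only the antisense genes were chosen by the mean count, which tends to favour rises, and its part in this difference was not tested.

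With ATRA alone 42 pairs moved in the same direction and 15 in opposite directions, and with CDK4/6i alone 12 and 13 did. Of all genes tested 32.1% were called higher and 35.5% lower with ATRA, and 28.3% and 27.9% with CDK4/6i. In the CDK4/6i comparison the antisense value was above that of the partner in 92 of the 124 pairs, with medians of 0.26 and -0.06. By position, 30 of 75 pairs with overlapping exons moved in the same direction with CDK4/6i+ATRA and 13 in opposite directions, beside 8 and 5 of 18 with overlapping bodies and 10 and 3 of 24 head to head. Pearson's r of the log2 fold changes across the 124 pairs was 0.54 with CDK4/6i+ATRA (Spearman's rho 0.46), given as a description, since the genes of a pair come from the same libraries and the median partner had a mean count of 487, far above that of its antisense gene.

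**Figure D4:**
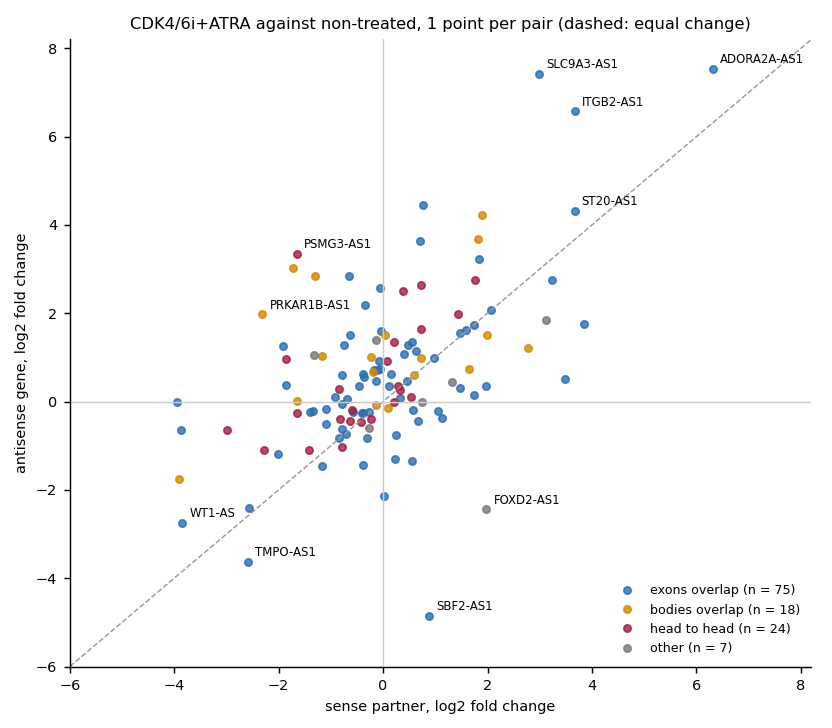
Log2 fold change of antisense genes (y axis) against that of their sense partners (x axis), from non-treated to CDK4/6i+ATRA cells, 1 point for each of 124 pairs, coloured by their position in the annotation. The dashed line marks equal change, and 87 pairs lie above it. SBF2-AS1 and FOXD2-AS1 lie at the lower right, with the antisense gene down and the partner up.

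The pairs that moved furthest apart with CDK4/6i+ATRA were led by SBF2-AS1. Its partner SBF2, a regulator of Rab GTPases, rose from 10.8, 12.4 and 11.8 CPM in non-treated to 22.7, 21.1 and 21.1 CPM in CDK4/6i+ATRA libraries (log2 fold change 0.89 ± 0.10), while SBF2-AS1 fell to 0.0826 to 0.183 CPM. FOXD2, a forkhead transcription factor, rose from 0.24, 0.69 and 0.563 to 1.56, 1.96 and 2.4 CPM (1.98 ± 0.42) beside a fall of FOXD2-AS1. In the other direction PSMG3 fell from 40.8, 43.9 and 40.7 to 14.8, 12.4 and 12.7 CPM (-1.65 ± 0.09) as PSMG3-AS1 rose, so that the CPM of both genes met with CDK4/6i+ATRA.

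SLCO4A1-AS2 (chr20:62648961-62652186) lies within SLCO4A1, the gene of an organic anion transporter. It rose from 1.08, 1.76 and 2.03 to 11.9, 14 and 14 CPM with both drugs (3.03 ± 0.19), while SLCO4A1 fell from 77.5, 75.6 and 80.1 to 24.1, 24.1 and 22.9 CPM (-1.72 ± 0.06). PRKAR1B-AS1 (chr7:602845-608502), within the gene of a regulatory subunit of protein kinase A, rose from 0.841, 0.815 and 0.845 to 2.47, 3.12 and 4.3 CPM as PRKAR1B fell from 51.9, 57.4 and 49.3 to 9.35, 11.8 and 10.7 (-2.32 ± 0.08). MAP3K5-AS2 (chr6:136784047-136786054) rose from 3.97, 3.39 and 5.46 to 31, 29.6 and 32.6 CPM, and MAP3K5, the stress kinase ASK1, fell from 19.1, 18.1 and 21.3 to 9.07, 7.13 and 7.69 (-1.30 ± 0.11). In the latter 3 pairs all unshared exon bases of the antisense gene lie inside the partner's body, and the part of unspliced partner reads was not tested.

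Among pairs that moved in the same direction, ITGB2, the beta chain of the leukocyte integrins, rose from 134, 129 and 126 CPM in non-treated cells to 994, 953 and 974 with ATRA and 1626, 1646 and 1705 with both (3.68 ± 0.04), beside the rise of ITGB2-AS1. SLC9A3, a sodium/hydrogen exchanger, rose from 3.01, 3.14 and 3.1 to 25.7, 24.9 and 23.1 CPM (2.99 ± 0.13). ADORA2A rose from 0, 0 and 0.0563 CPM, 1 count in all, to 2.75, 1.96 and 1.9 CPM with both (adjusted p = 1.18e-11). ST20-AS1 (chr15:79922771-79924854) rose from 1.38, 0.878 and 1.24 to 20.3, 26.8 and 23.7 CPM (4.33 ± 0.17) and ST20 from 0.301, 0.564 and 0.451 to 5.41, 6.06 and 5.45 (3.67 ± 0.31). SH3RF3-AS1 (chr2:109127327-109130119) followed ATRA, at 0.902, 1.07 and 1.3 CPM in non-treated cells, 10.2, 8.28 and 8.51 with ATRA, 1.04, 0.611 and 1.17 with CDK4/6i and 7.42, 8.02 and 6.94 with both, and so did SH3RF3, a ubiquitin ligase gene, from 5.89, 5.71 and 4.96 to 59.6, 62.6 and 58.1 CPM with ATRA.

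In pairs that fell, WT1 went from 67.3, 71.2 and 67.3 CPM in non-treated cells to 8.5, 9.62 and 12.7 with ATRA and 4.86, 5.35 and 4.13 with both (-3.85 ± 0.10), as WT1-AS fell. TMPO went from 338, 342 and 332 to 76.4, 76.4 and 82.9 CPM with CDK4/6i and 53.5, 59.4 and 54.6 with both (-2.59 ± 0.05). GATA2 fell by 3.91 with both drugs beside 1.74 for GATA2-AS1, and both rose with CDK4/6i. OIP5, a factor that loads the centromeric histone, fell by 3.87 beside 0.64 for OIP5-AS1, whereas with CDK4/6i alone OIP5 fell by 1.56 and OIP5-AS1 rose.

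**Figure D5:**
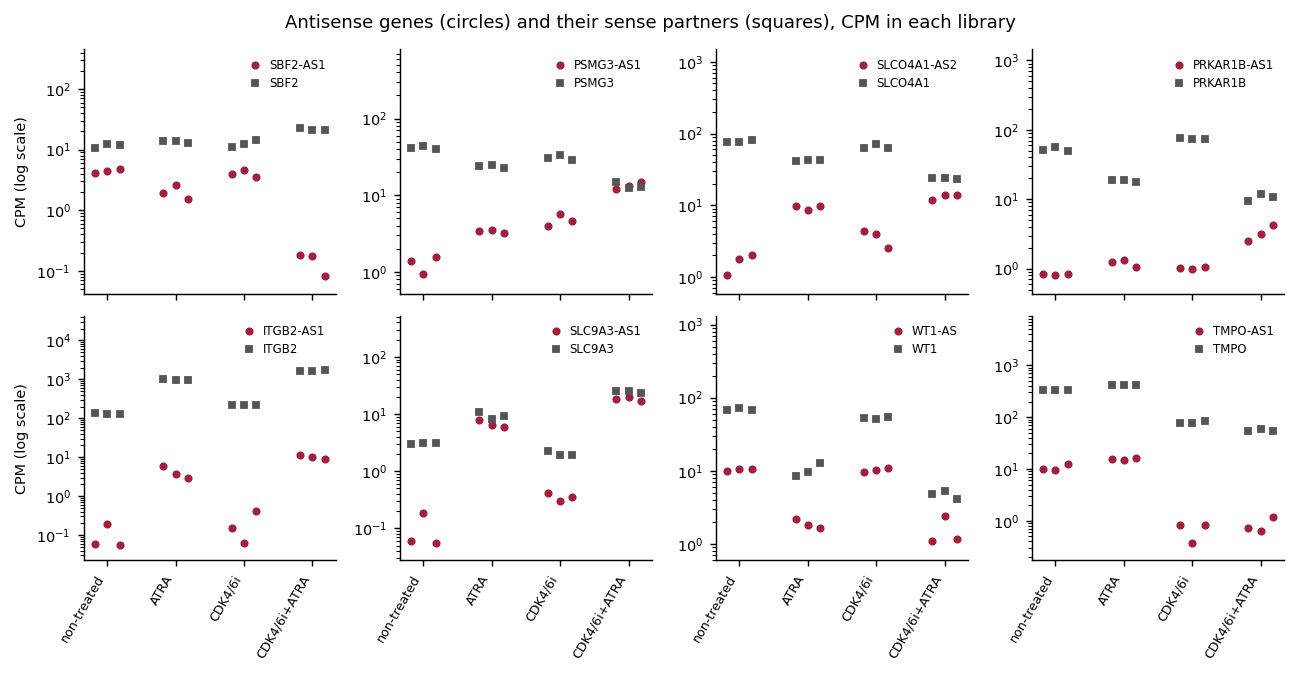
CPM after TMM scaling (y axis, log scale) of 8 antisense genes (circles) and their sense partners (squares) in the 3 libraries of each group (x axis). The upper row shows pairs that moved in opposite directions with CDK4/6i+ATRA and the lower row pairs that moved in the same direction. PSMG3-AS1 and PSMG3 meet between 12.2 and 15 CPM with CDK4/6i+ATRA.

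Sense partners fell into few of the gene lists compiled for this purpose. Of 121 cell cycle genes 3 had an antisense gene among the 199 (MCM3AP-AS1, OIP5-AS1 and TMPO-AS1), and all 3 fell with CDK4/6i+ATRA, a change called for 40.7% of all genes tested. MCM3AP-AS1 fell from 2.04, 3.51 and 3.38 to 0.825, 1.6 and 1.16 CPM (-1.31 ± 0.30), while MCM3AP, a factor of mRNA export, rose by 0.23. That rise did not hold by library size alone (-0.037, adjusted p = 0.467) or with no filter (0.12, adjusted p = 0.0642). Of 102 myeloid and immune genes 3 had 1 (DOCK8-AS1, GATA2-AS1 and ITGB2-AS1), of which DOCK8-AS1 and ITGB2-AS1 rose with CDK4/6i+ATRA and GATA2-AS1 fell. DOCK8, a guanine nucleotide exchange factor of immune cells, rose by 1.74 and DOCK8-AS1, named here after its values were seen, by 1.74 ± 0.38. Of 29 HOX genes 1 had such a gene, HOXA11-AS, and of the 19 listed genes of retinoid metabolism and signalling none had. That list did not hold ALDH1A3, the partner of ALDH1A3-AS1 described above.

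HOXA11-AS was at 1.2, 1.32 and 1.75 CPM in non-treated, 1.48, 2.62 and 0.884 in ATRA, 0.985, 1.71 and 1.52 in CDK4/6i and 1.19, 1.25 and 0.744 in CDK4/6i+ATRA libraries, which all overlapped, and was called in no comparison. HOXA11, its head-to-head partner, fell by 0.62 with ATRA and by 0.63 with both drugs. Of 30 LINC and antisense RNAs listed as widely described, 17 were among the 199, 12 stayed under the cut, 4 of them at 0, and 1 was not in the table. Those at 0 need not be silent, since shared exon bases appear to give no counts. With CDK4/6i+ATRA 6 of these 17 rose and 7 fell, with ATRA 7 rose and 5 fell, and with CDK4/6i 5 rose and 3 fell. Of all genes tested, 41.0% rose and 40.7% fell with CDK4/6i+ATRA, 32.1% and 35.5% with ATRA, and 28.3% and 27.9% with CDK4/6i.

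Those not yet described had moderate changes. PSMA3-AS1 rose with both drugs (0.66 ± 0.08) after a rise with ATRA (0.24 ± 0.08) and a fall with CDK4/6i (-0.31 ± 0.09). NUTM2B-AS1 rose by 0.74 ± 0.09 and LINC00667 by 1.13 ± 0.21 with CDK4/6i+ATRA. LINC00339 held 4.75, 5.27 and 4.79 CPM in non-treated cells and fell to 2.38, 2.41 and 2.31 CPM with both drugs only (-1.06 ± 0.20), while ATRA gave 6.84, 5.07 and 5.52 and CDK4/6i 4.87, 5.01 and 4.92 CPM. NNT-AS1 fell with both drugs (-0.82 ± 0.18), as did NNT (-0.85).

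MAPKAPK5-AS1 was called lower with both (-0.51 ± 0.14) but not without non-treated replicate 2 (-0.31, adjusted p = 0.0527). LINC00467 was called higher with both (0.63 ± 0.26, adjusted p = 0.0248) but not without non-treated replicate 1 (0.48, adjusted p = 0.11), without CDK4/6i+ATRA replicate 2 (0.54, adjusted p = 0.09), without CDK4/6i+ATRA replicate 3 (0.51, adjusted p = 0.113), with no filter (0.52, adjusted p = 0.0895) or by library size alone (0.36, adjusted p = 0.19). ZEB1-AS1 and LINC01089 rose with ATRA (0.55 ± 0.24 and 1.21 ± 0.34) and were not called with both drugs, where the log2 differences were -0.26 ± 0.28 (adjusted p = 0.389) and 0.51 ± 0.39 (adjusted p = 0.229). The ATRA call of ZEB1-AS1 was lost in 6 of 20 alternative fits, with 0.28 (adjusted p = 0.322) without non-treated replicate 1, and adjusted p = 0.0798, 0.0815 and 0.0641 without ATRA replicates 1, 2 and 3.

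In structure the 199 genes had a median length of 2732 bases and a median of 4 exon blocks, and 22 had a single block. The start of a protein-coding gene lay within 1000 bases for 77 of the 136 antisense genes (56.6%) and for 4 of the 63 LINC genes (6.35%). Genes that rose and genes that fell with CDK4/6i+ATRA had it there in 38 of 98 and 18 of 51 cases. Per unshared exon base, those that rose had a median of 0.662 RPKM in non-treated cells and those that fell 2.43 RPKM. Genes were chosen by their mean count over all libraries, so this order is largely fixed by the choice and nothing is read from it.

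Other classes of noncoding gene with a mean count of at least 20 gave these counts. Of 41 divergent transcripts (genes named -DT) 17 rose and 12 fell with CDK4/6i+ATRA and 18 rose and 2 fell with CDK4/6i. Of 19 small nucleolar RNA host genes (SNHG) 4 rose and 12 fell with CDK4/6i+ATRA, and with ATRA 0 rose and 16 fell. The shares of all genes tested were 41.0% higher and 40.7% lower with CDK4/6i+ATRA, 28.3% and 27.9% with CDK4/6i, and 32.1% and 35.5% with ATRA. The median log2 fold change with ATRA was -0.73 for these host genes and 0.23 for the 199 LINC and antisense genes. The difference between the classes was not tested.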

How the data were processed

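Total RNA of HL60 cells was sequenced from strand-specific libraries in 4 groups of 3 biological replicates. Per the labels, the authors trimmed reads with Trimmomatic (0.33) and aligned them with STAR (2.7.11a) to hg38, with RefSeq genes. They deposited 1 table of raw counts per gene. The study's methods name RSEM for quantification, but the table holds whole numbers in the layout of featureCounts, so how reads of overlapping genes or of several positions were assigned is not certain. The strand setting is not given in the sources used here. That exon bases shared between strands gave no counts is inferred from 390 genes wholly covered by opposite-strand exons, all at 0.

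From the counts, edgeR (4.0.16) with limma (3.58.1) in R (4.3.3) kept 13318 of 59251 genes (filterByExpr), scaled them by TMM and tested 4 groups with the quasi-likelihood F test (8 residual degrees of freedom), with Benjamini-Hochberg adjustment over all genes tested and a threshold of 0.05. The fit was tested on simulated data in which all genes had the same spread and few changed. That test could not judge the scaling or noisier genes of low count. Log2 fold changes are given with an approximate standard error. It is the absolute log2 fold change divided by the square root of the F statistic, and was not estimated by the fit itself. Intervals of ratios are exact Poisson intervals at 95%, and with the floor of 3 counts they cover counting error only. Reads carry no molecular identifiers.

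The members and gene lists were chosen with earlier results of these data known. Named genes were called, reached 1 CPM in a group and had libraries that did not overlap: for CDK4/6i+ATRA the 5 highest and 5 lowest of each class, for each drug alone 3 and 3. For the interaction they were the 4 highest and 4 lowest called over both classes, without the rule on overlap. Added were the 6 most abundant genes per length, 6 pairs that moved in opposite and 6 in the same direction, and those on the list of widely described RNAs. DESeq2 (1.42.0), other scalings, filters and subsets of libraries were tried as alternatives.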

Additional observations from a re-analysis of the deposited data

Results flagged for a closer look

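The interaction was called in 58 of the 199 genes (29.1%), beside 51.4% of all genes tested. In these 58 the change with CDK4/6i differed between cells with and without ATRA by edgeR's quasi-likelihood test of the difference itself. It was positive in 22 and negative in 36, or 10 and 63 by library size alone. The 8 genes named for it had interactions of 3.16 (ZNF337-AS1), 2.66 (ZNF674-AS1), 2.19 (ATXN1-AS1), 2.00 (RAB11B-AS1), -3.58 (SBF2-AS1), -3.43 (ALDH1A3-AS1), -3.28 (LINC00426) and -1.97 (FRY-AS1) on the log2 scale. SBF2-AS1 and ALDH1A3-AS1 rest on 5 and 3 counts over the CDK4/6i+ATRA libraries.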

How the results depend on the processing

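The counts of called genes stayed within 1.5 times the main count under DESeq2's size factors, library size alone, DESeq2 in place of edgeR, no filter and fits of only the groups compared. Requiring a mean count of at least 50 left fewer genes: 71 called with ATRA, 53 with CDK4/6i, 80 with CDK4/6i+ATRA, 64 for CDK4/6i+ATRA against ATRA, 88 against CDK4/6i and 34 for the interaction, with 24 pairs in the same direction and 9 in opposite directions. Pairs in the same direction numbered 32 with at least 10 counts in every library and 79 with a mean count of at least 10 as the rule for members. Leaving out 1 library at a time gave 98 to 114 calls with ATRA, 75 to 88 with CDK4/6i, 139 to 149 with CDK4/6i+ATRA, 108 to 117 against ATRA, 141 to 155 against CDK4/6i, 51 to 58 for the interaction, 45 to 51 pairs in the same direction and 23 to 26 in opposite directions. With CDK4/6i+ATRA, EPB41L4A-AS1 turned to -0.25 and MCM3AP to -0.037 by library size alone. Replicate numbers did not pair the samples: 18 correlations of same-numbered deviations ran from -0.114 to 0.07. A replicate block gave 110 calls with ATRA, 85 with CDK4/6i, 147 with CDK4/6i+ATRA, 114 against ATRA, 155 against CDK4/6i, 59 for the interaction, and 50 and 24 pairs. For the genes and partners named in the text, fits chosen by the naming rule were joined, after seeing the data, by those of the other comparisons with non-treated cells. Of these values 5045 stayed on their side of the threshold, among them uncalled values that changed sign, 87 lost the call, 16 gained it, and 2 that were called in either fit turned. Low counts limit these results, since 97 genes had a mean under 50.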
